A study of Arabidopsis thaliana with 4 samples.

Results

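The genes described here are those with a co-translational RNA decay index in both libraries of the Arabidopsis thaliana mutant abh1. The deposited tables list 21858 loci in both abh1 libraries. A locus was set aside when its index was shared by over 10 loci of either library, which left 13953 members of the 23498 loci listed anywhere in the series. Per their labels, both libraries come from plants that have lost ABH1 function in the Col-0 background. Immature inflorescences (buds) were taken from plants about 4 weeks old that had no further treatment and grew with 16 h of light and 8 h of dark. The labels name no allele. The library titles carry the numbers 1 and 8, and whether these stand for plants, lines or replicates is not stated, so the spread between the libraries may be technical. The series also holds 2 wild-type libraries titled Col-0_CHX, from plants of the same age and light. They are used here for nothing but which loci they list. Their titles carry the tag CHX without spelling it out. Absence from their lists is not read as an effect of the mutation.

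In the nucleus, a complex of a large subunit, ABH1, and a small one, CBP20, holds the cap at the front end of messenger RNA. When an mRNA loses its cap, an exonuclease can degrade it from that end, and in plants as in yeast it can do so while the last ribosomes are still translating, so that the enzyme follows the ribosome codon by codon. GMUCT, a method that maps transcripts without a cap, sequences the exposed 5′ ends of such RNAs. The index deposited for each gene is a ratio without a unit. The labels and files give no formula, so the meaning of a value on either side of 1 is not stated. Below, 1 serves as a fixed point of reference only.

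Most genes of the abh1 buds lay slightly above 1. The median index over the 13953 members was 1.15 in replicate 1 and 1.14 in replicate 2. The middle part of the members, between the quartiles, ran from 1.03 to 1.28 in both libraries. The index was above 1 in both libraries at 9818 members (70.4%), below 1 in both at 1621 (11.6%), and not on the same side in both at 2514 (18%). The extremes were far apart, with a lowest value of 0.04 and a highest of 17.2, both in replicate 2.

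A high index, at least 2 in both libraries, was found at 152 members (1.09%). A low index, at most 0.5 in both, was found at 72 (0.516%). Near 1, from 0.9 to 1.1 in both, lay 2149 members (15.4%). Values of exactly 1 were the most common of all, at 560 and 607 loci of the 2 libraries, and the rule sets them aside, so the near-1 count leaves them out. With all loci listed in both libraries kept, 314 were high, 246 low and 2732 near 1. With each library centred on its own median, 103 members were high and 105 low, so the excess of high members was not kept.

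The libraries ranked the genes alike in part. Across members, which are genes and not independent replicates, the log2 index of the libraries had a Pearson r of 0.69 and a Spearman rho of 0.56. Of the 698 members in the top 5% of one library, 356 (51.0%) were in the top 5% of the other. At the bottom 5% it was 394 (56.4%). Members in the top 5% of one library and the bottom 5% of the other numbered 22 and 24. The median gap between the libraries was 0.12 on the log2 scale, and the median member lay 0.20 above 1 on that scale.

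**Figure D1:**
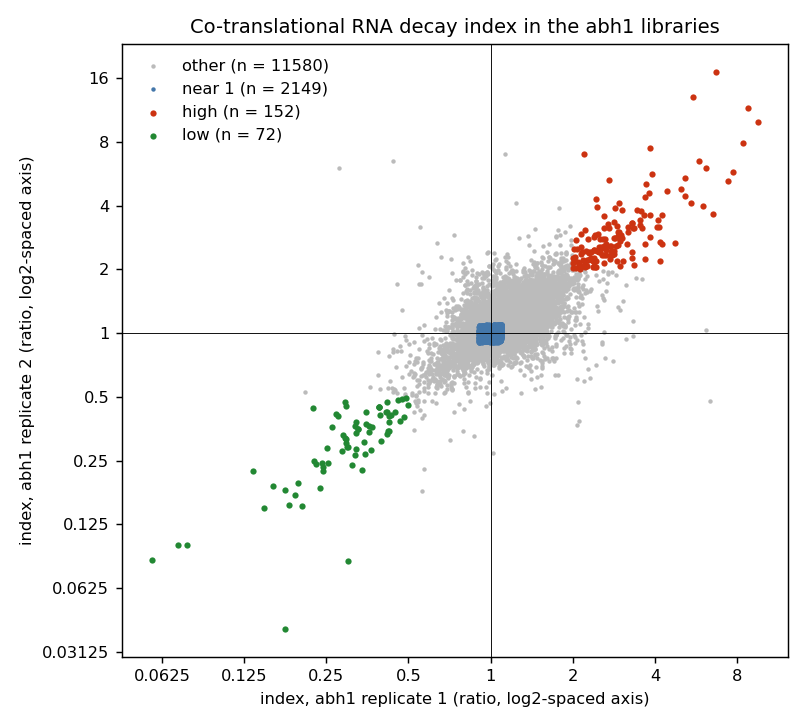
Each point is 1 of 13953 genes, with its index (a ratio without a unit) in abh1 replicate 1 on the x axis and in replicate 2 on the y axis, both spaced on the log2 scale. The 152 high and 72 low genes lie beyond the cloud around 1, in corners set by their bounds in both libraries. The 2149 genes near 1 sit within the cloud, and a few grey points lie far off the diagonal.

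The level of each member was tested against an index of 1 with limma's moderated test over all 13953 members, from the 2 libraries. At a Benjamini-Hochberg adjusted p under 0.05, 218 members (1.56%) lay above 1 and 83 (0.595%) below 1. Of the 152 high members 123 passed, and of the 72 low members 62 passed. This count sits close to the threshold, since the smallest adjusted p was 0.0364. It fell to 0 with a limit of 20 loci for repeated values, with no limit, and with a trended fit, while 5551 members above 1 and 660 below 1 had an unadjusted p under 0.05. Measured against each library's own median in place of 1, 100 members (0.717%) passed above and 106 (0.76%) below.

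The highest member with a gene symbol was EDS16 (AT1G74710), the isochorismate synthase that makes the precursor of salicylic acid, the hormone of defence against pathogens. Its index was 8.42 in replicate 1 and 7.90 in replicate 2. On the log2 scale it lay at 3.03 ± 0.065 (limma's moderated SE, n = 2), with a limma adjusted p of 0.0364. The next was TPS11, of the trehalose phosphate synthase family, with 5.15 and 5.40. The 12 highest and 12 lowest symbols were taken from those that passed the test, which asks for a small gap between the libraries, so how close their replicates lie is no finding.

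CPK16, a calcium-dependent protein kinase, had 5.97 and 3.98, the widest gap among the 12 highest that passed. Its limma adjusted p was 0.0498, and 0.0528 against the library median. RALFL32, of a family of small secreted signalling peptides, had 4.42 and 4.71. CF9 followed with 3.79 and 4.59. TOPP5, a catalytic subunit of protein phosphatase type 1, had 4.24 and 3.6. All of these lay above 3.5 in both libraries.

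ECT3, a reader of methylated adenosine in mRNA, had 3.84 and 3.63. NUDT17, a nudix hydrolase, had 3.54 and 3.76, and UGE3, which interconverts UDP-glucose and UDP-galactose, had 3.52 and 3.44. Among these 3 the libraries were nearly equal, which the test they passed favours. The 12 closed with EMB2217, needed for embryo development, at 3.03 and 3.84, the phospholipid-binding protein ZAC at 3.51 and 3.23, and TBL11 at 3.30 and 3.31. TBL11 belongs to a family that acts on the acetylation of cell wall polysaccharides. The roles of the 12 spread over defence, sugar metabolism, signalling and RNA binding, and no enrichment was tested.

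Some loci without a symbol in the name table lay higher still. AT4G39670 had 8.75 and 11.6 and AT3G41762 had 9.54 and 9.98, both with a limma adjusted p of 0.0364. AT5G63905 had 6.69 and 17.2, so its libraries differed by 1.36 on the log2 scale, and it did not pass, with a limma adjusted p of 0.0562.

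At the low end, PP2-B4, related to a phloem protein, had an index of 0.0714 in replicate 1 and 0.10 in replicate 2. On the log2 scale it lay at -3.56 ± 0.15 (limma's moderated SE, n = 2), with a limma adjusted p of 0.0364. DOT3, which acts in the patterning of leaf veins, had 0.16 and 0.19. RTE1, which acts on the ethylene receptor ETR1, had 0.177 and 0.182. SCRL13, a small cysteine-rich protein of the family named after the pollen determinant of self-incompatibility, had 0.192 and 0.172. These 4 were below 0.2 in both libraries.

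BEN1, an enzyme of brassinosteroid metabolism, had 0.23 and 0.24, and the receptor kinase HERK2, whose family senses the state of the cell wall, had 0.224 and 0.25. The glutaredoxin GRXC2, which reduces disulfides, had 0.25 and 0.287. RCD1, a regulator of stress and cell death responses, had 0.295 and 0.316. These 4 were below 0.32 in both libraries.

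FAR7, of the fatty acyl reductases that make alcohols for waxes and barriers, had 0.293 and 0.321. CRL2, related to an enzyme of lignin synthesis, had 0.288 and 0.33. MOS1, which acts on the expression of an immune receptor gene, had 0.321 and 0.339, and UBC34, which passes ubiquitin on to target proteins, had 0.32 and 0.362. All 12 passed limma's test, with adjusted p from 0.0364 to 0.0378, and all were below 0.4 in both libraries.

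The 8 members with a symbol closest to 1 had index values within 0.01 of 1 in both libraries. TIF3B1, a subunit of the translation initiation factor eIF3, had 1.001 and 1.0004. THO7, of the complex that couples transcription to mRNA export, had 1.01 and 1.003. Hsp70-15, a chaperone, had 0.997 and 0.994. FIM1, which bundles actin filaments, had 0.993 and 0.999. GAPA, the chloroplast glyceraldehyde phosphate dehydrogenase, had 0.996 and 1.01. The other 3 were MEE4, the lipid phosphate phosphatase LPPgamma and the cytochrome b5 CB5-C, all from 0.993 to 1.01. Their limma adjusted p ran from 0.928 to 0.99, which does not show that their true level is 1.

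**Figure D2:**
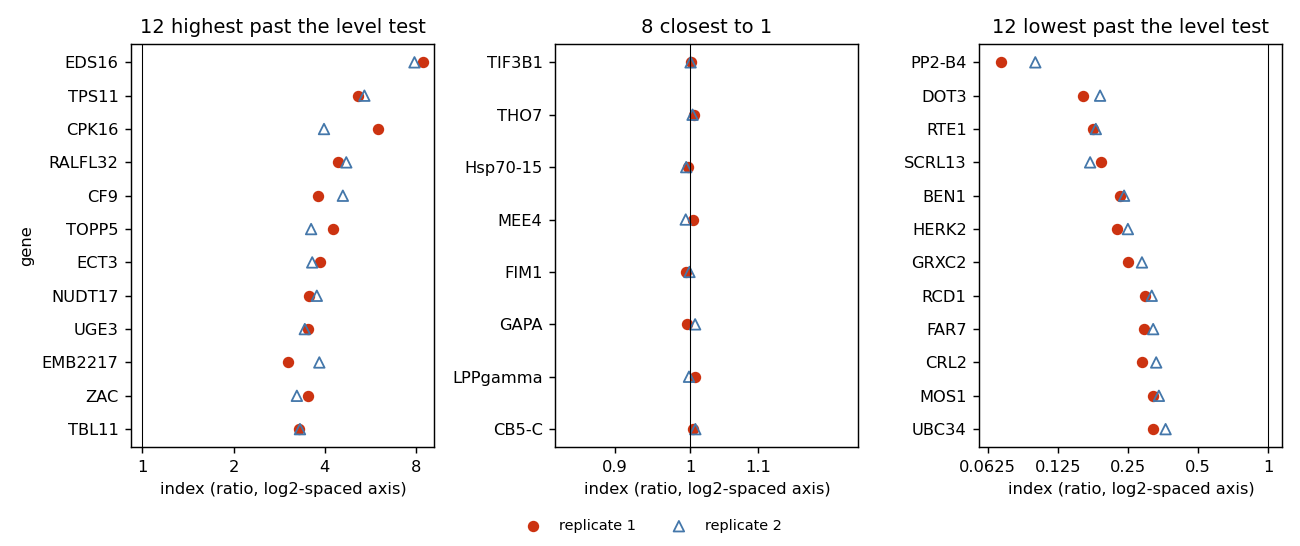
Index (ratio, log2-spaced x axis) in abh1 replicate 1 (filled circles) and replicate 2 (open triangles) for the 12 highest and 12 lowest genes with a symbol past limma's level test and the 8 closest to 1. The vertical line marks 1. The highest reach from 3.03 to 8.42 and the lowest from 0.0714 to 0.362. How close the replicates lie follows from how the genes were chosen.

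The genes of the cap-binding complex and of decay from the 5′ end were at ordinary levels. ABH1 itself (AT2G13540) had 1.01 and 1.19, CBP20, the small subunit of the complex, had 1.11 and 1.22, and XRN4, the cytoplasmic exonuclease that follows the last ribosome, had 1.19 and 1.20. None passed limma's level test, with adjusted p of 0.311, 0.121 and 0.078. An index of ABH1 does not tell how much of its transcript was present, so it does not check the genotype. Of the 16 loci of this list 15 were members, with a median of 1.16. In both libraries 11 were above 1 and 2 below 1, beside 70.4% and 11.6% of all members.

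Within that list the highest were AGO1, the slicer of the microRNA pathway, with 1.37 and 1.34, UPF2, of nonsense-mediated decay, with 1.32 and 1.33, DCL1, which cuts microRNAs from their precursors, with 1.4 and 1.26, and DCP5, a partner of the decapping enzyme, with 1.36 and 1.26. The lowest was PEL1, which rescues stalled ribosomes, with 0.883 and 0.865. UPF3 followed with 0.982 and 0.968 and DCP2, the decapping enzyme itself, with 1.04 and 0.967. XRN3 had a repeated value and was set aside. None of the 15 passed limma's test, where 2.16% of all members did, so the count says nothing particular about the list.

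Marker genes were set beside the labelled tissue. Of 140 loci on 6 lists of flower, anther, pollen and meiosis genes, both abh1 libraries listed 134. Of the 23498 loci of the series they listed 21858, so the flower count lies near the share of all loci. Of 9 root markers 7 had none in either library and COBL9 and IRT1 had one in both, and of 7 seed markers 5 had none, CRA1 had one in a single library and FUS3 in both. All 9 leaf photosynthesis markers were listed, at a median of 1.04, with PSBO1 of the oxygen-evolving complex lowest (0.87 and 0.877). Being listed therefore does not tell flower from leaf. In whole buds, fewer cells of a type and less RNA per cell cannot be told apart.

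Genes that give the floral organs their identity sat close together around the level of all genes. Of 21 listed loci, 15 were members, with a median of 1.14 beside 1.15 over all members. In both libraries 11 were above 1, 2 below 1 and 5 near 1, beside 70.4%, 11.6% and 15.4% of all members. The highest member was SEP4, a MADS factor acting in all whorls, with 1.30 and 1.39. AP2, of the outer whorls, had 1.5 and 1.19, SEP1 had 1.28 and 1.26, and AP1, which sets sepal and flower meristem identity, had 1.23 and 1.21. The replicates of SEP1 and AP1 were nearly equal and those of AP2 were not.

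At the lower end of this list were SEP3 (0.962 and 0.915), the fruit gene SHP1 (0.927 and 0.992) and PTL, which limits the growth between sepals (0.938 and 1.03). The petal and stamen genes AP3 and PI lay in between, with 1.14 and 1.13 for AP3 and 1.09 and 1.07 for PI. AG, which makes stamens and carpels, had 1.19 and 1.23. The 6 set aside were LFY, UFO, CAL, SUP, RBE and PAN, which had values from 0.82 to 3.13.

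Of 17 loci of carpel, ovule and meristem 10 were members, and all 10 exceeded 1 in both libraries, at a median of 1.29, where 70.4% of all members did. The highest was ETT, an auxin response factor of the carpel, with 1.39 and 1.63, and the next were SEU and BOP2, with 1.41 and 1.4, and 1.246 and 1.45. WUS, which keeps stem cells in the shoot meristem, had 1.20 and 1.44. The lowest was BEL1, of the ovule integument, with 1.05 and 1.08. The 5 loci set aside had values from 1 to 1.67, SPT being at exactly 1 in replicate 2. KNU was listed in 1 library alone, at 0.5, and CLV3 in neither.

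Anther and tapetum genes spread more widely. Of 31 loci 21 were members, with a median of 1.17. In both libraries 14 were above 1 and 3 below 1, where 70.4% and 11.6% of all members were. CALS5, which makes the callose wall around developing pollen, had 1.55 and 1.38. The tapetum regulators BHLH010 and MYB80 had 1.53 and 1.34, and 1.29 and 1.55, and ABCG26, which exports material for the pollen wall, had 1.24 and 1.56. These 4 were the highest of the 21 members. The 9 loci of this list set aside had values from 0.6 to 3.38, with TDF1 at 3.38 and 2.17.

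The lowest member was SPL/NZZ, needed to start the sporogenous tissue of the anther, with 0.653 and 0.758. A9, a protein of the tapetum, had 0.856 and 0.953, and CYP704B1, a hydroxylase of pollen wall synthesis, had 0.961 and 0.866. The master regulator AMS was near 1, at 1.03 and 1.03. MS1 had 1.42 and 0.968 and ACOS5 had 1.68 and 1.15, so that in these the libraries differed by more than the typical distance from 1.

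The 8 pollen coat loci were all members, and their replicates were close, with a median gap of 0.057 on the log2 scale where all members had 0.12. GRP14, GRP18 and GRP17, glycine-rich oleosins of the coat, had 1.4 and 1.41, 1.48 and 1.18, and 1.27 and 1.28. The coat lipases EXL4, EXL6 and EXL5 ran from 1.05 to 1.19. GRP16 had 1.1 and 1.05. GRP19 alone was below 1 in both libraries, at 0.809 and 0.869, while GRP14, GRP16, GRP17 and GRP18 were above 1.

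Of 44 loci of pollen and the pollen tube 28 were members, with a median of 1.18. In both libraries 18 were above 1 and 3 below 1, where 70.4% and 11.6% of all members were. PRF4, a profilin of the pollen actin skeleton, had 1.89 and 1.81. On the log2 scale PRF4 lay at 0.89 ± 0.063 (limma's moderated SE, n = 2), with a limma adjusted p of 0.0494. It lost the call against the library median (adjusted p = 0.0561 in limma) and with robust fitting (0.0525). It was the 1 member of the 87 on the flower lists past the test, a share no higher than the 2.16% of all members. CPK17, a kinase of pollen tube growth, had 1.65 and 1.69 and missed it with a limma adjusted p of 0.0505. AGP11 had 1.93 and 1.34, and the GTPase ROP1, which steers the tip of the tube, had 1.34 and 1.58.

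The lowest members of the pollen list were the channel CNGC18 (0.746 and 0.882), the transcription factor MYB101 (0.869 and 0.829) and GEX1, of the gametes (0.855 and 0.94). Among its members the widest gap between libraries was at AGL66, a MADS factor of pollen, with 2.28 and 0.674. The 13 loci of this list set aside had values from 0.25 to 3.25, with MYB97 at 0.389 and 0.385. The related receptor kinases BUPS1, with 1.15 and 0.791, and BUPS2, with 1.09 and 1.91, overlapped in their replicates. Of the meiosis genes, 14 of 19 were set aside, with values from 0.404 to 5.5. The 5 members included ZYP1B and ZYP1A, which zip paired chromosomes together, the cohesin REC8 and the recombinase DMC1. All 5 ran from 0.839 to 1.90, with the widest median gap of these lists, 0.38 on the log2 scale.

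**Figure D3:**
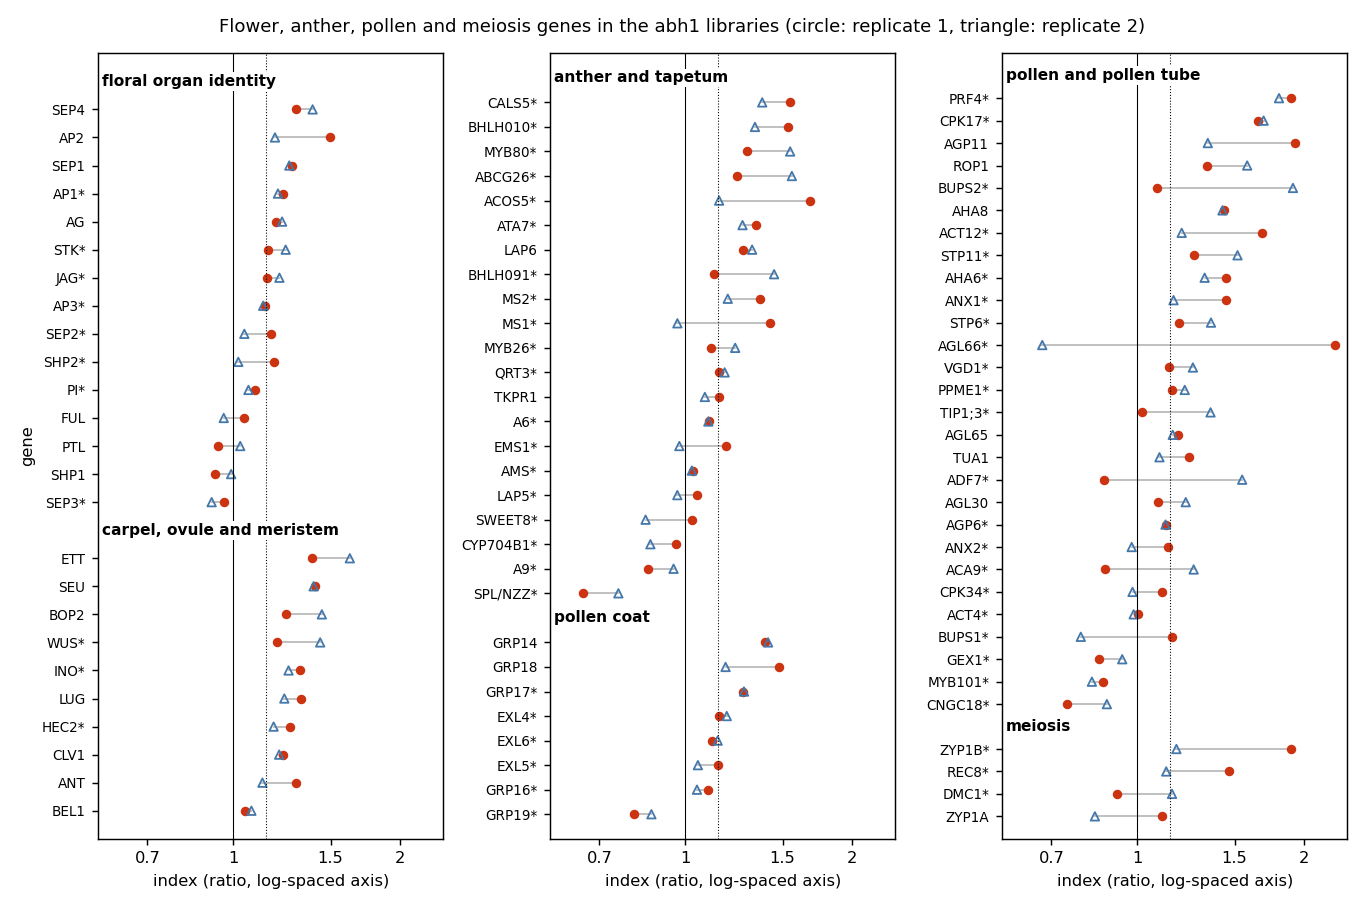
Index (ratio, log-spaced x axis) of 86 of the 87 members of 6 flower, anther, pollen and meiosis lists, with circles for abh1 replicate 1, triangles for replicate 2 and a line joining them. The solid line marks 1, the dotted line the median of all members (1.15), and an asterisk a locus listed in no Col-0_CHX file. Most genes lie between 1 and 1.5, with wide gaps at AGL66 and ZYP1B.

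Many of the flower loci are those that the Col-0_CHX files do not list. Over all 21858 loci of both abh1 libraries, 3538 (16.2%) were in neither Col-0_CHX file. Of the 134 flower loci that both abh1 libraries list it was 101. Among members it was 936 of 13953 (6.71%), and 61 of the 87 flower members. These 61 had a median of 1.17. In both libraries 41 (67.2%) were above 1 and 8 (13.1%) below 1, beside 70.4% and 11.6% of all members. Of all 936 members in neither Col-0_CHX file, 56.8% were above 1 and 18.4% below 1. Of the 61, 0 were high or low, where 1.09% and 0.516% of all members were, and 3.74% and 2.24% of the 936. This count leaves out the flower loci set aside. Among those in neither Col-0_CHX file, TDF1 (3.38 and 2.17) and MMD1 (2 and 5) met the high bound. MYB97 (0.389 and 0.385) met the low bound. The lists and this split were chosen with earlier results of these data known. Why Col-0_CHX lacks these loci was not tested.

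The 936 members that no Col-0_CHX file lists had the same median as the rest and a wider spread. Their median index was 1.15, as it was for the 12532 members listed in both. Between genes the log2 index had an SD of 0.58, beside 0.31. In this set 35 (3.74%) were high and 21 (2.24%) low, where the shares were 0.862% and 0.367% among the 12532. Near 1 lay 11.2% of them, beside 15.9%. The gap between the abh1 libraries moved with this, at a median of 0.20 on the log2 scale beside 0.12, and its part in the wider spread was not tested.

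The 11 high members of this set with a symbol were CPK16, HDK, PUB15, CHR34, VGDH2, RHS16, MIOX5, FANCM, CPK24, PGA4 and CHX21. VGDH2, a pectin methylesterase of the family that acts in the pollen tube wall, had 2.65 and 2.46 (limma adjusted p = 0.0378). MIOX5, an inositol oxygenase, had 2.46 and 2.45, PGA4, a polygalacturonase, 2.33 and 2.24, CPK24, a calcium-dependent kinase, 2.24 and 2.46, and the cation exchanger CHX21 had 2.28 and 2.21. In these 5 both libraries were close, and the test they passed favours a small gap. HDK had 2.20 and 7, PUB15 had 2.45 and 3.95, CHR34 had 2.61 and 3.58, and RHS16 had 2.90 and 2.20, and these 4 did not pass limma's test, with adjusted p from 0.0534 to 0.0821.

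The 6 low members with a symbol were PP2-B4, SCRL13, FAR7, EXT6, sks18 and cPT8. EXT6, an extensin of the cell wall, had 0.357 and 0.341, sks18, of a family of multicopper oxidase relatives, had 0.426 and 0.38, and cPT8, a prenyltransferase, had 0.466 and 0.385. All 6 passed limma's test, with adjusted p from 0.0364 to 0.0498. LBD10, named by the rule, had 0.21 and 0.525 and so missed the bound of 0.5 in replicate 2. The other 24 high and 15 low members of the set have no symbol in the name table. MIOX5, PGA4, CPK24, CHX21, FANCM and cPT8 were named after their values were seen.

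**Figure D4:**
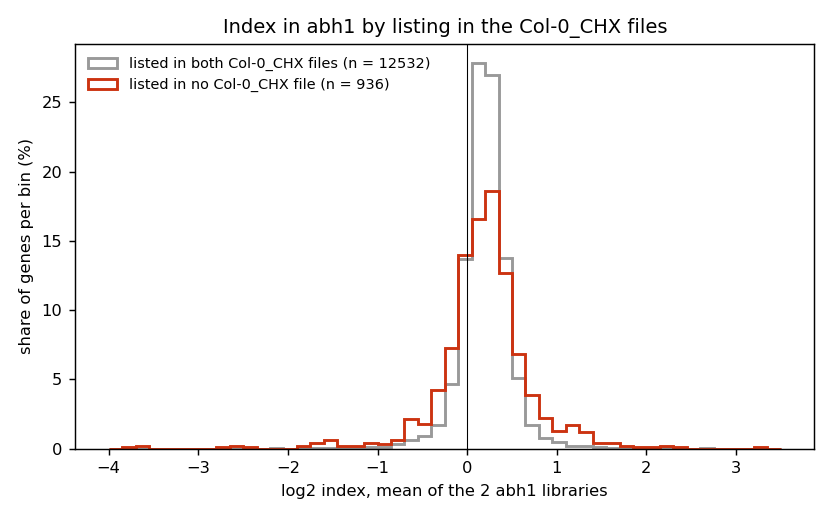
Share of genes (% per bin, y axis) by log2 index averaged over the 2 abh1 libraries (x axis), for 936 members in no Col-0_CHX file (red) and 12532 in both (grey). Both curves peak at the same place, while the red one is lower there and wider on each side.

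Grouped by the letters that open their symbols, the medians of gene groups lay in a narrow range. There were 36 such groups of at least 15 members, a grouping made after the data were seen, and letters need not mean a shared function. Group medians ran from 1.04 for RLP, receptor-like proteins of the cell surface, to 1.31 for GRP, glycine-rich proteins. Within GRP the mean of both libraries ran from 0.697 for GRP4 to 1.70 for GRP7, the RNA-binding protein under the control of the clock. All 24 UBP members, most of them proteases that remove ubiquitin, were above 1 in both libraries, from 1.09 for UBP14 to 1.6 for UBP9. Of the 19 RLP members 6 were above 1 and 4 below 1 in both. UBP and RLP had the highest and lowest shares above 1 among the 36 groups, beside 70.4% of all members.

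Loci with the ribosomal symbols RPS and RPL lay close to all genes, with a median of 1.14 for 23 named RPS and 1.09 for 21 named RPL. This grouping rests on the symbol alone. Ribosomal protein genes without such a symbol are not in it, so it does not describe the class as a whole. RPS15A had 2.06 and 1.84 and RPS15 had 0.698 and 0.733, so members of 1 ribosomal subunit lay on either side of 1. Genes of these families have close copies between which reads may be split, which leaves single loci uncertain.

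**Figure D5:**
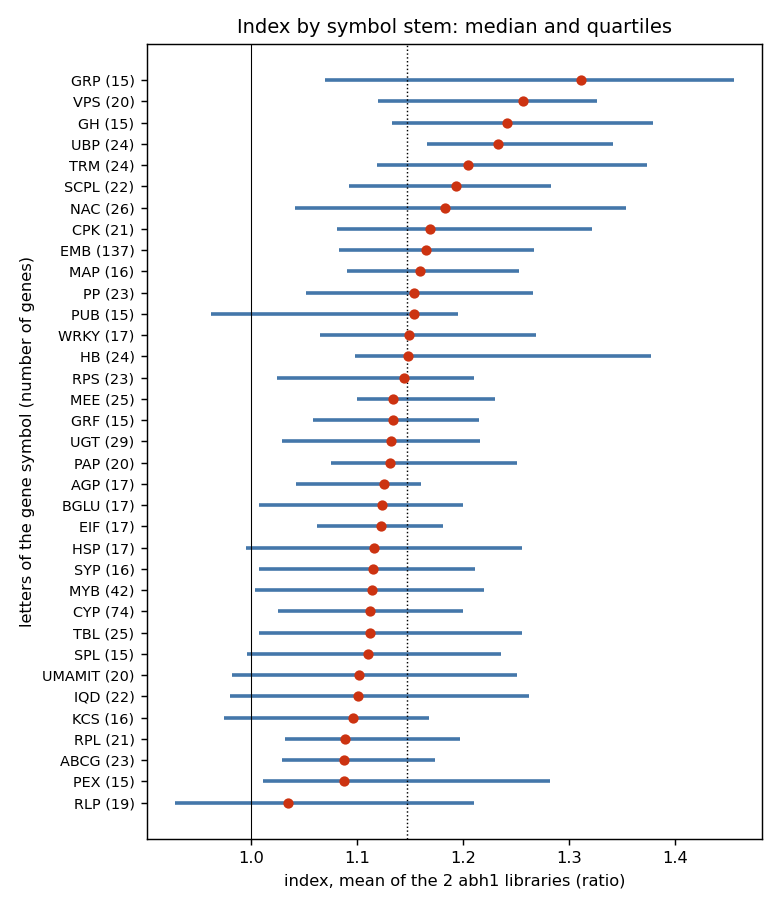
Median (red points) and quartiles (blue lines) of the index, as the mean of both abh1 libraries (ratio, x axis), for 35 of the 36 groups of genes whose symbols open with the same letters (y axis, number of genes in brackets). The solid line marks 1 and the dotted line the median of all members (1.15). Group medians run from 1.04 to 1.31, and most quartile ranges cross the dotted line.

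The 4 members with a symbol that differed most between the libraries were these. RABA1e, a small GTPase of membrane traffic, had 0.278 and 6, EDA4 had 0.438 and 6.5, CDC48B, of a family of protein-unfolding ATPases, had 1.13 and 7, and the glutathione transferase GSTU24 had 0.553 and 3.17. Replicate 2 was the higher one in all 4. None passed limma's test.

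The limit on repeated values decided what was kept. At the limit, 28 and 22 values of the 2 libraries were shared by exactly 10 loci, with a median of 1.16 and 1.14 and a range from 0.30 to 5.5. Such a value did not set its locus aside, though a repeated value in the other library could. Values shared by exactly 11 loci numbered 28 and 21 and were set aside, with a median of 1.11 and 1.12 and a range from 0.444 to 2.67. The 7905 loci set aside had nearly the same medians, 1.13 and 1.12, but an SD of 0.71 and 0.70 on the log2 scale, and a Spearman rho of 0.17 between the libraries. Of them 32.9% were in neither Col-0_CHX file.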

How the data were processed

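Per the labels, polyA RNA of buds was made into GMUCT libraries, sequenced with strand kept. Per the submitters' processing notes, cutadapt 1.4.2, STAR 2.4.0 and the TAIR10 genome were used. For each library the authors deposited a table that pairs gene models with the index, a linear ratio. The sources used here do not give its formula, its read minimum or the depth, so no counting interval was made.

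The index of each locus was put on the log2 scale without a pseudocount (no value was 0), and a level is the mean of both libraries on that scale. Levels were tested against 0 with limma 3.58.1 in R 4.3.3 (intercept only, 2 libraries, two-sided, Benjamini-Hochberg over 13953 members). The procedure was also run on simulated data. Of 100 loci set at each level, it called 91 at a log2 index of -1 and 96 at 1. The simulated spread was drawn from the fit itself, so this cannot check whether that spread suits the real libraries. Lists are described, not tested. Symbols came from RefSeq TAIR10.1, used for names only: 13938 members were found there, 6553 with a symbol. Where a list uses another name (REC8, A9, UPF2), the locus was matched by its identifier. The libraries had identical values at 0.737% of loci listed in both, so neither is a copy.

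Members and lists were chosen with earlier results of these data known. The rule named ABH1, CBP20 and XRN4, the 12 highest and 12 lowest symbols past the test, the 8 closest to 1, up to 4 highest and 3 lowest of each list, the 6 highest and 6 lowest in no Col-0_CHX file, and the 4 that differed most between libraries. Other list members were named for their role after their values were seen. The symbol groups were added later. A member of the meiosis list and a symbol group are not reported here. The planned relation to protein length was not run, because no sequence was used here. Tables were handled in Python 3.11.15 with pandas 2.3.3 and numpy 2.4.6, correlations in scipy 1.17.1 and figures in matplotlib 3.10.9.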

Additional observations from a re-analysis of the deposited data

How the results depend on the processing

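The count past limma's level test rested on the settings. Against 218 above 1 and 83 below 1, it was 2289 and 333 with a limit of 5 loci for repeated values, 519 and 147 with quantile normalization, 91 and 48 with robust fitting, 100 and 106 against each library's median, and 5002 and 596 at an adjusted p under 0.1. It was 0 and 0 in limma with a limit of 20 loci (5525 and 701 at an unadjusted p under 0.05), with all loci kept (4807 and 832) and with a trended fit (5678 and 684). The cause was not tested. All 39 genes named in the text that passed the test lost the call in these last 3 settings. CPK16, PRF4, TCP3 and RPS15A lost it against the median and, with EMB2217 and cPT8, with robust fitting. In each setting run in which they had a value, all 39 kept their direction. ABH1, which had not passed, lay at -0.060 against the median.

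High members numbered 260 to 268 with either library alone, 103 after centring, 314 with all loci kept and 577 from a bound of 1.5. Near 1, it was 4082 to 4255 with either library alone, 4122 after centring and 7341 with wider bounds. Low members numbered 105 after centring, 246 with all loci kept and 164 with a wider bound. The median of all members was 1.14 to 1.15 with either library alone and 1.14 with all loci kept. For loci in no Col-0_CHX file it was 1.14 with either library alone, 1.15 with a limit of 5, 1.12 with all loci and 1.13 as a mean. Medians of the lists with over 1 member stayed above 1 in every setting run.

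With 1 library left out the level test has no residual degrees of freedom and was not run. No paired analysis was possible because a single group entered each test. The depth behind each index is unknown.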

Other observations

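Of 5 TCP transcription factor genes known as targets of the microRNA miR319, chosen after their values were seen, TCP4 and TCP3 were high. TCP4 had an index of 3.34 and 3.15 and TCP3 had 2.4 and 2.84, both past limma's test (adjusted p = 0.0364 and 0.0482), as were 2.16% of all members. Against the library median TCP3 did not pass (limma adjusted p = 0.0510). TCP24 had 1.36 and 1.28, TCP10 had 1.252 and 1.18 and TCP2 had 1.04 and 0.944, and these 3 did not pass. Members of this small family thus lay at both the high and the near-1 level in the same libraries.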
